A study of Mus musculus with 6 samples.

Results

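The immediate-early transcription factor genes Fos, Fosb, Jun, Junb, Jund, Egr1, Egr2, Egr3, Atf3 and Nr4a1 were taken by gene symbol from splenic B cell expression arrays of p80HT transgenic mice and wild-type (WT) mice. They are 10 of the 19938 genes that had a probeset assigned to a single symbol, and each was read by exactly 1 such probeset. The 3 p80HT mice carried human p80HT, a C-terminally truncated form of NF-κB2 found in human lymphoma, driven by H-2Kb promoter and immunoglobulin μ enhancer sequences, so that T cells as well as B cells expressed it. They were 1 year old, on a mixed C57BL/6J and SJL/J background, and had M-protein (monoclonal immunoglobulin) in their serum, and the 3 WT mice were their littermates without the transgene, with no treatment in either group. Cells were selected with anti-B220 antibody and magnetic beads, and the RNA of each mouse was hybridised to 1 Affymetrix Mouse Gene ST array, so that n is 3 mice per genotype.

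Immediate-early genes are transcribed within minutes of a stimulus without new protein synthesis, and in B cells they follow engagement of the antigen receptor as well as the stress of handling and tissue dissociation. Fos and Jun family proteins pair through leucine zippers to form AP-1 and bind TPA response elements, EGR proteins bind GC-rich sites through zinc fingers, and Nr4a1 (Nur77) is an orphan nuclear receptor used as a reporter of antigen receptor signalling. Many immediate-early promoters carry binding sites for CREB or for SRF with its ternary complex partners, through which kinase signals can reach them.

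Promoter windows were read for 8 members from RefSeq, build GRCm38.p6, each window running from 250 bases before to 50 bases after a transcription start. The windows of 6 members are shown 5′ to 3′ on the coding strand: Junb, and the 5 whose transcripts stood farthest from the other arrays on 1 p80HT array. Capitals mark the CRE core TGACG, a binding site of CREB and ATF proteins. Where the core lies on the other strand it reads CGTCA in these lines. In Jun, capitals mark the AP-1 variant TGACATCA. The windows are chr12:85473640-85473939 (plus strand) for Fos, chr7:19309996-19310295 (minus strand) for Fosb, chr4:95052173-95052472 (minus strand) for Jun, chr8:84978699-84978998 (minus strand) for Junb, chr1:191183284-191183583 (minus strand) for Atf3 and chr15:101266596-101266895 (plus strand) for Nr4a1.
Fos: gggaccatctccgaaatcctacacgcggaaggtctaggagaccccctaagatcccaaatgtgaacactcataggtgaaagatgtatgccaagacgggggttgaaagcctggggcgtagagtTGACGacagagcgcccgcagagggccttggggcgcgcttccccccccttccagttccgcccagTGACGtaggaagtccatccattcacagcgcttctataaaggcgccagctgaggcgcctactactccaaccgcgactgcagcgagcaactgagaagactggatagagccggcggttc
Fosb: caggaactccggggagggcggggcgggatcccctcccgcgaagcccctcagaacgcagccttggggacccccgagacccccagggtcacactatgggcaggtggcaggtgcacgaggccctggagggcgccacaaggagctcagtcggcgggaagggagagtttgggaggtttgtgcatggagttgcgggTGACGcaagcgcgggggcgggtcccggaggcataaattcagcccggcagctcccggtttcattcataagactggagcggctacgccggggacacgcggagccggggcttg
Jun: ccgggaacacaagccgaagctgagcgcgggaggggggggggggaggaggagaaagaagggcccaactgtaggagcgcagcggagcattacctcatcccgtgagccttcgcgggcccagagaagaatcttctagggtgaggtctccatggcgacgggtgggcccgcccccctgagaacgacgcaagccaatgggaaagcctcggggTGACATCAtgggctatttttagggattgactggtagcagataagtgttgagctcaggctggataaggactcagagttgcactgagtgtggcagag
Junb: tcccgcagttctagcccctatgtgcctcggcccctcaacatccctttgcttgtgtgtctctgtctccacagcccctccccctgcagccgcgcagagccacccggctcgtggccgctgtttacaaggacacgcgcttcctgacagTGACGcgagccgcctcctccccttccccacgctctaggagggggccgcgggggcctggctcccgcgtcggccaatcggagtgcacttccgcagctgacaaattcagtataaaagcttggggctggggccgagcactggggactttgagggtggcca
Atf3: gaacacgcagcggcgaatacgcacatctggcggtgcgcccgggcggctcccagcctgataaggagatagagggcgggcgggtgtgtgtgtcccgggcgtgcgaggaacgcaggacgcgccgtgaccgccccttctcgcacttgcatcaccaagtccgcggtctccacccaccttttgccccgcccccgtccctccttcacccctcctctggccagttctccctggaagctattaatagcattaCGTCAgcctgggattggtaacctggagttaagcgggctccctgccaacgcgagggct
Nr4a1: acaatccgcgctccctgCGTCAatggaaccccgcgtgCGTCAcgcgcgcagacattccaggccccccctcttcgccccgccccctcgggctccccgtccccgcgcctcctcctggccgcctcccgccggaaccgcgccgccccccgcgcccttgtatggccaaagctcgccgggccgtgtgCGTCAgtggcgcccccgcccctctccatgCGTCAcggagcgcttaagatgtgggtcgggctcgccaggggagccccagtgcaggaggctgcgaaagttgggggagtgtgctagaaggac

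The CRE core was searched on both strands and lay in a window of 6 of the 8 members, Fos, Fosb, Junb, Egr2, Atf3 and Nr4a1, against 20.8% of all 32851 promoter windows of the same length. Counted from the transcription start, its first base stood at -129 and -66 in Fos, at -60 in Fosb, at -106 in Junb and at -7 in Atf3. Nr4a1 held 4 copies, at -233, -213, -69 and -40. The 8-base palindrome TGACGTCA, which contains the core, was in no member's window (1.79% of all windows), and neither was the TPA response element TGACTCA (5.2%) or the EGR site GCGTGGGCG (0.612%). The CArG box, the site of SRF, was found in Egr2 alone (1.63% of all windows). Sites farther than 250 bases before the start were not read, and Egr1 and Egr3 had no window. TGACATCA, searched after the Jun window had been read, was in Jun alone at -45 (3.62% of all windows). Egr2 had 5 windows and the other members 1 each, so a match in any of the 5 counted for Egr2, whereas the shares are per window. These are matches of letters and were not tested as binding sites.

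Before any comparison, the array of p80HT replicate 3 has to be set apart. Its correlation with the other 5 arrays across the 19938 genes was 0.914 to 0.925, against 0.981 to 0.995 among those 5. All array medians lay between 7.68 and 7.81 log2 units. Each comparison is therefore given with all 6 arrays and again without that array.

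With all 6 arrays, none of the 10 genes differed between p80HT and WT B cells by the study's threshold of 1.5-fold with an unadjusted p under 0.01 in the limma fit, which was passed upward by 1.22% and downward by 0.968% of all genes. At an unadjusted p under 0.05 there was 1 member, Junb, and 10.2% of all genes, and an adjusted p under 0.05 was reached upward by 0.0502% and downward by 0.00502% of all genes and by no member. All 10 means were nonetheless below WT, as were those of 54.9% of all genes, and the median log2 fold change was -0.84 over the members and -0.023 over all genes. On p80HT replicate 3 all 10 genes had the lowest value of the 6 arrays (48.1% of all genes) and none the highest (27.8%), and its Fosb signal was 38.8-fold below the next lowest array, the largest such drop of the 19938 genes. Without that array Junb, a Jun family member that restrains proliferation, passed as lower in p80HT B cells, as did 1.45% of all genes. Atf3, a stress-induced CREB/ATF family factor, passed as higher, as did 2.01%, but not at an adjusted p under 0.05. Neither passed there by ordinary analysis of variance, the test the paper names (p = 0.0262 for Junb and 0.0942 for Atf3).

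**Figure D1:**
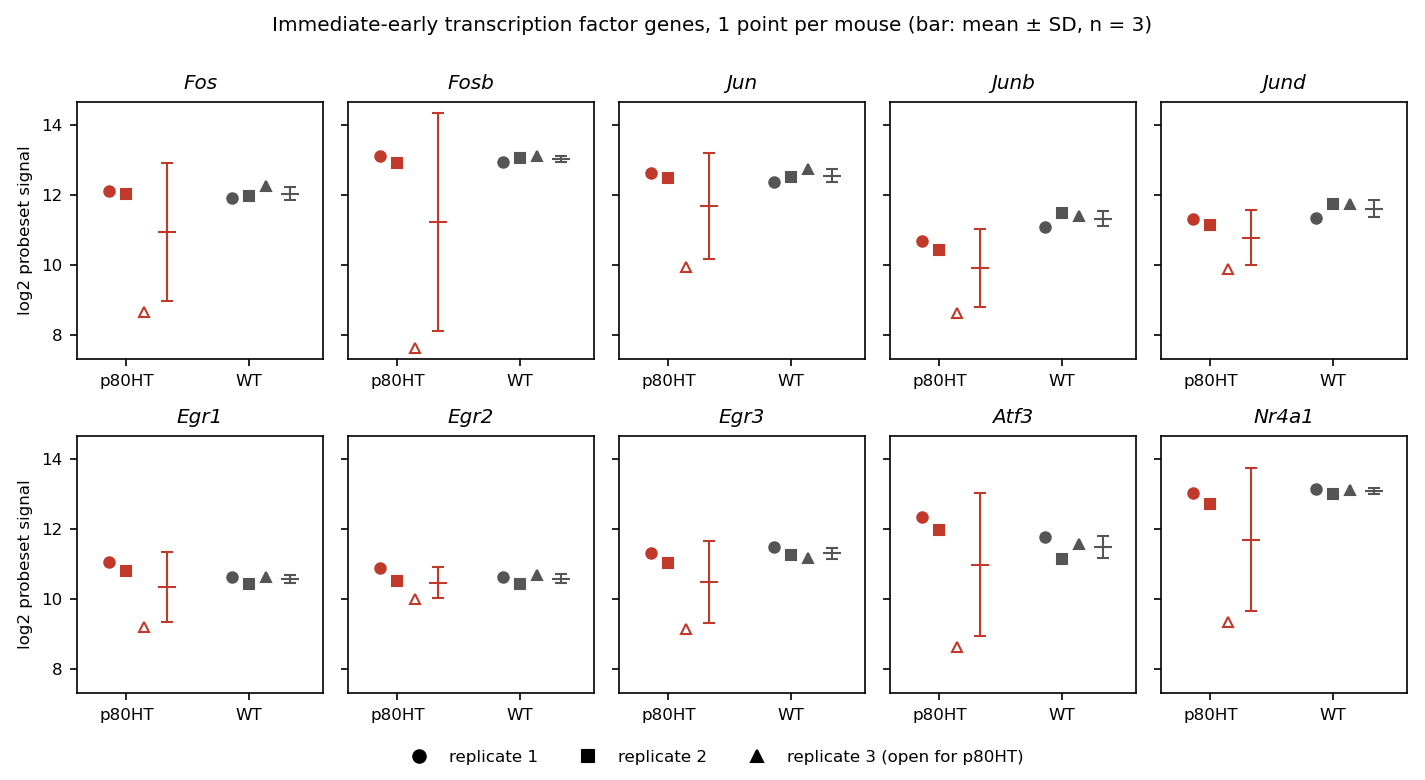
Log2 probeset signal (y axis) of the 10 immediate-early genes in each mouse, with p80HT on the left (red) and WT on the right (grey) of each panel. Circles, squares and triangles are replicates 1, 2 and 3, the open triangle is p80HT replicate 3, and bars give the mean ± SD of 3 mice; the open triangle is the lowest point of every panel, and p80HT Junb lies below WT Junb also without it.

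The Fos family proteins need a Jun partner to bind DNA strongly. Fosb, an inducible relative of Fos, had log2 signals of 13.13, 12.91 and 7.64 in p80HT B cells and of 12.93, 13.06 and 13.11 in WT B cells. All the spread came from 1 mouse, since the other 5 arrays lay within 0.216 log2 units of each other, the narrowest range of the 10 genes. The log2 fold change was -1.81 (SE 1.35, adjusted p = 0.701) with all 6 arrays and -0.014 (SE 0.12, adjusted p = 0.952) without p80HT replicate 3. Fos itself had 12.12, 12.03 and 8.66 in p80HT and 11.91, 11.96 and 12.25 in WT B cells. For Fos, p80HT replicates 1 and 2 lay inside the WT range. Its log2 fold change was -1.10 (SE 0.86, adjusted p = 0.720) with all arrays and 0.036 (SE 0.13, adjusted p = 0.880) without that mouse.

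The 3 Jun genes did not share 1 pattern. Jun, the strongest transactivator of the family, had 12.63, 12.49 and 9.94 in p80HT and 12.38, 12.52 and 12.75 in WT B cells. It behaved as Fos did, with a log2 fold change of -0.86 (SE 0.67, adjusted p = 0.716) with all arrays and of 0.013 (SE 0.13, adjusted p = 0.961) without p80HT replicate 3. Junb had 10.67, 10.43 and 8.63 in p80HT B cells, against 11.07, 11.49 and 11.41 in WT B cells. Every p80HT array was below every WT array, and the other 2 mice were lower as well as replicate 3. Junb averaged 9.91 ± 1.12 in p80HT and 11.32 ± 0.22 in WT B cells (SD, n = 3 each), a log2 fold change of -1.41 (SE 0.50, adjusted p = 0.425) that did not pass. The exact two-sided permutation test gave p = 0.1, the smallest that 3 against 3 arrays allow. Without p80HT replicate 3 the log2 fold change was -0.77 (SE 0.14, adjusted p = 0.0167), or 1.71-fold, and passed both the study's threshold and an adjusted p of 0.05.

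Jund, which unlike its relatives is expressed in resting cells, had 11.33, 11.14 and 9.88 in p80HT and 11.33, 11.74 and 11.75 in WT B cells. The groups again did not overlap, but p80HT replicate 1 and WT replicate 1 had the same signal to 2 decimals. Its log2 fold change was -0.82 (SE 0.37, adjusted p = 0.509) with all arrays and -0.37 (SE 0.15, adjusted p = 0.180) without p80HT replicate 3, and neither passed. All 3 p80HT arrays lay below all 3 WT arrays in these 2 members and in 11.9% of all genes, and above them in no member and 8.86% of all genes.

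The 3 EGR genes were each lowest on p80HT replicate 3, and none passed with or without that array. Where the other p80HT arrays stood against WT varied by gene, which was not tested. Egr1, the zinc finger factor induced most widely by growth factors and antigen, had 11.05, 10.81 and 9.21 in p80HT B cells, against 10.64, 10.44 and 10.62 in WT B cells. Its 2 higher p80HT arrays stood above all WT arrays while replicate 3 stood below them, so the log2 fold change was -0.21 (SE 0.45, adjusted p = 0.962) with all arrays and 0.36 (SE 0.12, adjusted p = 0.124) without that array. Egr2, which with Egr3 restrains lymphocyte activation, had 10.90, 10.53 and 9.99 in p80HT and 10.64, 10.44 and 10.69 in WT B cells. It was the member that p80HT replicate 3 moved least, by 0.44 log2 units below the next lowest array, and its log2 fold change was -0.11 (SE 0.23, adjusted p = 0.957) with that array and 0.13 (SE 0.14, adjusted p = 0.607) without it. Egr3 had 11.31, 11.03 and 9.15 in p80HT and 11.49, 11.26 and 11.19 in WT B cells. Its log2 fold change was -0.82 (SE 0.52, adjusted p = 0.642) with all arrays. Without p80HT replicate 3 it was -0.14 (SE 0.13, adjusted p = 0.547), with the 2 remaining p80HT arrays on both sides of the lowest WT array.

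Atf3 and Nr4a1 stood apart from each other once replicate 3 was left out. Atf3, which represses many of its targets as a homodimer, had 12.34, 11.98 and 8.64 in p80HT B cells and 11.77, 11.15 and 11.57 in WT B cells. It had the lowest value on 1 p80HT array and the 2 highest on the others, and its log2 fold change of -0.51 (SE 0.90, adjusted p = 0.945) with all arrays turned to 0.66 (SE 0.18, adjusted p = 0.0734), or 1.58-fold, without replicate 3. That passed the study's threshold but not an adjusted p of 0.05, and it was lost when WT replicate 2 (0.49) or p80HT replicate 1 (0.48) was also left out, where the second of these fits has 1 p80HT array, assumed to vary like the WT arrays. Nr4a1 had 13.04, 12.72 and 9.34 in p80HT B cells and 13.16, 13.01 and 13.11 in WT B cells, where its SD of 0.073 was the smallest of the 10 genes. Its log2 fold change was -1.39 (SE 0.89, adjusted p = 0.640) with all arrays and -0.21 (SE 0.12, adjusted p = 0.340) without that array.

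Across the set, leaving out p80HT replicate 3 gave 1 member higher, Atf3, and 1 lower, Junb, where 2.01% and 1.45% of all genes passed upward and downward. An adjusted p under 0.05 was reached by no member upward and by Junb downward (2.56% and 2.11% of all genes), and an unadjusted p under 0.05 by 4 members, Junb, Jund, Egr1 and Atf3 (21.6%). The median log2 fold change was -0.00054 over the members and 0.036 over all genes, and 5 of 10 members had means below WT (43.7% of all genes). p80HT replicates 1 and 2 were both above all WT arrays in Egr1 and Atf3 (19.7% of all genes) and both below them in Junb and Jund (20.5%). p80HT replicate 1 exceeded replicate 2 in all 10 members (49.1% of all genes), by 0.10 log2 units in Fos up to 0.37 in Egr2.

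**Figure D2:**
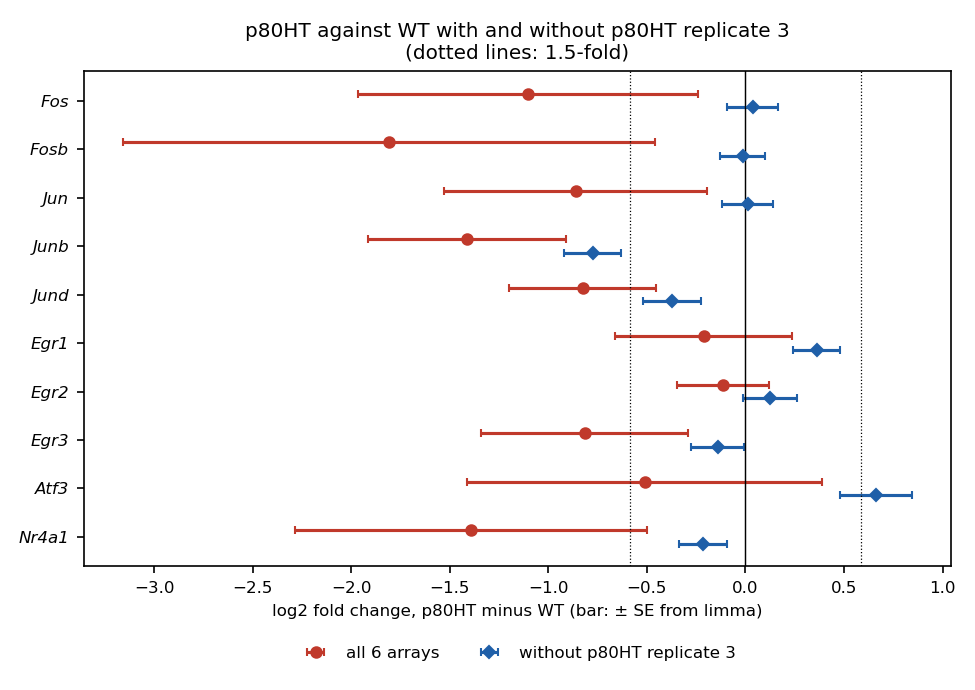
Log2 fold change of p80HT over WT B cells (x axis) for each gene (y axis), with all 6 arrays (red circles) and without p80HT replicate 3 (blue diamonds); bars are ± SE from limma and dotted lines mark 1.5-fold. The red bars span up to 1.35 log2 units on each side, and without that array Junb at -0.77 and Atf3 at 0.66 lie past the dotted lines.

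The array of p80HT replicate 3 can be described but not tested, since it is 1 mouse. It was at least 1.5-fold below the lowest of the other 5 arrays in 9 of 10 members, all but Egr2, as in 4.81% of all genes. It was above the highest of the others by that much in no member, as in 9.61% of all genes. The gap reached 2-fold in the same 9 members (1.34% of all genes) and 8-fold in Fosb, Nr4a1 and Fos, among only 8 such genes of the whole array (0.0401%). In size the drops ranked Fosb at 38.8-fold, Nr4a1 at 10.4-fold, Fos at 9.49-fold, Atf3 at 5.70-fold, Jun at 5.42-fold, Egr3 at 3.68-fold, Junb at 3.48-fold, Jund at 2.40-fold, Egr1 at 2.36-fold and Egr2 at 1.36-fold. Of the neighbours in this order, Fosb and Nr4a1, Jun and Egr3, and Egr1 and Egr2 differed by more than the range of either gene over the other 5 arrays, and the other neighbours did not.

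The same array differed from the others in its cell type markers. All 9 measured B cell markers were at least 1.5-fold below the other 5 arrays, as were 4.81% of all genes. Their summed linear signal was 16150 on p80HT replicate 3, 39796 to 43112 on the other p80HT arrays and 49183 to 56755 on the WT arrays. Ms4a1, which encodes CD20, was still at 11.77 on that array, against 13.03 and 12.88 in the other p80HT mice and 12.99 to 13.12 in WT mice. All 8 salivary and lacrimal gland markers were at least 1.5-fold above the other arrays (9.61% of all genes), with summed signals of 30191 on p80HT replicate 3, 972 to 1222 on the other p80HT arrays and 957 to 1108 on the WT arrays. The same held for all 8 fibroblast and stroma markers (12879 on p80HT replicate 3, 1575 to 1795 on the other p80HT arrays, 1316 to 1727 on the WT arrays), 7 of 10 macrophage markers (38280, then 11620 to 13778 on the other p80HT arrays, 8415 to 10996 on the WT arrays) and 7 of 8 T cell markers (19907, then 10984 to 11761 on the other p80HT arrays, 6983 to 8316 on the WT arrays). Neutrophil markers ran the other way, at 1999 on p80HT replicate 3, 16752 to 23254 on the other p80HT arrays and 4656 to 18717 on the WT arrays.

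Lyz2, the most abundant macrophage marker, was at 13.64 on that array, at 12.59 and 12.001 in the other p80HT mice and at 11.44 to 12.45 in WT mice. Ngp, the most abundant neutrophil marker, was at 9.28 on that array, at 12.96 and 12.48 in the other p80HT mice and at 10.93 to 12.78 in WT mice. Among the gland and stroma markers Pip, a secretory gland protein, was at 13.70 on p80HT replicate 3 and no higher than 5.51 on any other array, and Dcn, a stromal proteoglycan, was at 13.09 on it and no higher than 6.15 elsewhere. The members' own summed signal was 6147 on p80HT replicate 3, 37439 to 44169 on the other p80HT arrays and 40404 to 44229 on the WT arrays. The part of these marker shifts in the members' values was not tested, and in these bulk samples fewer B cells and less RNA per B cell cannot be told apart. Between the members and the B cell markers, the median difference of p80HT replicate 3 from the other 2 p80HT arrays was -2.32 for the members, -1.29 for the B cell markers and -0.17 for all genes.

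**Figure D3:**
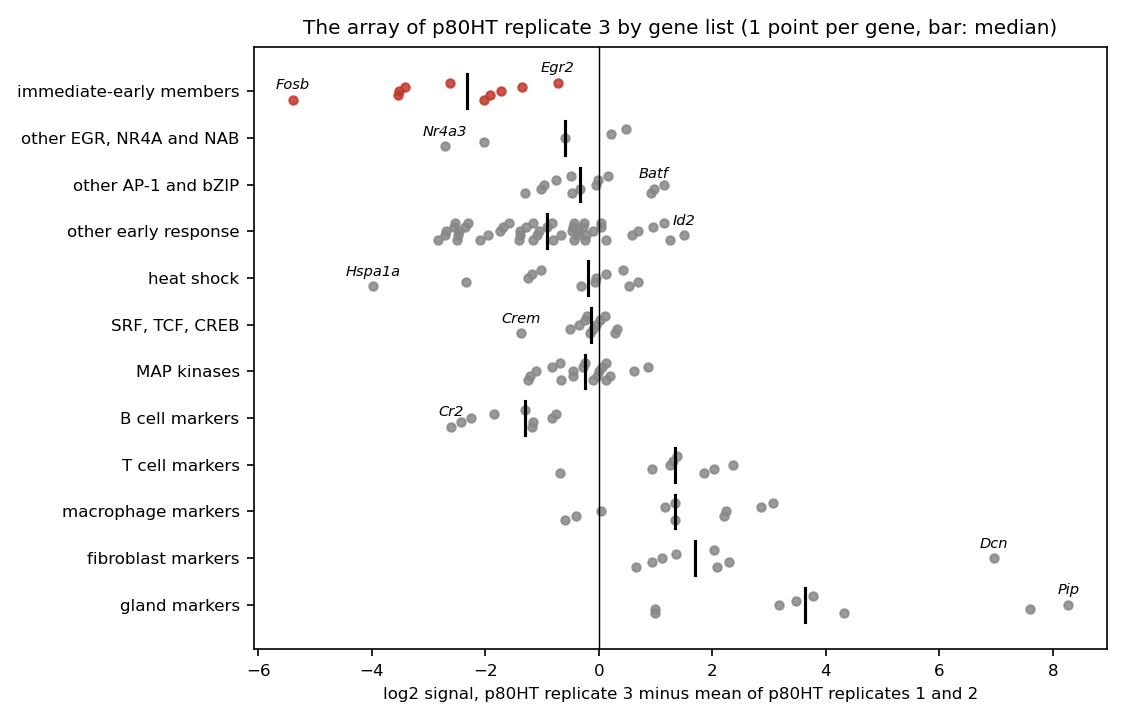
Log2 signal of p80HT replicate 3 minus the mean of p80HT replicates 1 and 2 (x axis) for every measured gene of each list (y axis), with the median as a bar; immediate-early members are red. Members lie between Fosb and Egr2 with a median of -2.32, B cell markers have a median of -1.29, and gland markers reach past 8 log2 units to the right.

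Markers also differed between the groups. Of all genes, 1.22% passed upward and 0.968% downward with all 6 arrays, and 2.01% and 1.45% without p80HT replicate 3. With all 6 arrays the T cell receptor genes Cd3e (1.74, SE 0.38) and Cd3g (2.03, SE 0.48) and the T cell and B-1 cell surface gene Cd5 (1.10, SE 0.27) were higher, on the log2 scale, as were 2 of 10 macrophage markers, Adgre1 (0.72, SE 0.19) and Vsig4 (0.62, SE 0.11), 2 of 5 erythroid markers and 1 of 6 NK cell markers, Nkg7 (1.31, SE 0.32). Of 7 plasma cell markers 1 was higher, Prdm1 (0.80, SE 0.16), which drives plasma cell differentiation, and the median of the 7 was 0.072. Without p80HT replicate 3, 5 of 8 T cell markers and 4 of 5 erythroid markers were higher in p80HT B cells, as were the same 2 macrophage markers, Adgre1 (0.92, SE 0.11) and Vsig4 (0.61, SE 0.10), and the NK cell markers Nkg7 (0.98, SE 0.18) and Eomes (0.60, SE 0.16). Also higher were 2 of 7 neutrophil markers, the granule genes Mpo (2.28, SE 0.27) and Elane (2.10, SE 0.19), and the other 5 did not pass. In turn 2 of 9 B cell markers, Cr2 (-1.13, SE 0.14) and Fcer2a (-0.996, SE 0.14), were lower. The part of these marker differences in the Junb and Atf3 differences was not tested.

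Relatives of the members outside the set were mixed. Of 5 other EGR and NR4A genes and EGR corepressors none passed the threshold with or without p80HT replicate 3, and their median log2 fold changes were -0.25 with that array and 0.17 without it. Nr4a3, a close relative of Nr4a1, had 11.16, 10.57 and 8.15 in p80HT and 11.02, 10.53 and 10.48 in WT B cells. Nr4a2 had 11.60, 11.22 and 9.39 in p80HT and 11.09, 10.72 and 10.87 in WT B cells. Both shared the low replicate 3, by 2.33 and 1.33 log2 units below the next lowest array, whereas Nab1 and Nab2, which bind EGR proteins and repress their targets, did not. Nab1 had a log2 fold change of -0.25 (SE 0.17, adjusted p = 0.657) with all arrays. Nab2 was at 9.96, 9.98 and 10.19 in p80HT and 10.46, 10.36 and 10.37 in WT B cells, a log2 fold change of -0.35 (SE 0.13, adjusted p = 0.422) with all arrays and of -0.43 (SE 0.10, adjusted p = 0.0457) without replicate 3, under 1.5-fold in both.

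Of 13 other measured AP-1 and related bZIP genes none passed with all 6 arrays, and their median log2 fold change was -0.061. On p80HT replicate 3, 3 of them (Mafk, Fosl2 and Maff) were at least 1.5-fold below the other arrays (4.81% of all genes). Another 3 (Batf2, Batf and Maf) were at least 1.5-fold above (9.61% of all genes). Fosl1, which encodes the Fos relative FRA-1, had 8.30, 8.20 and 6.95 in p80HT and 7.55, 7.51 and 7.77 in WT B cells. It lay above all WT arrays in p80HT replicates 1 and 2, and without replicate 3 it was higher by 0.64 log2 units (SE 0.12, adjusted p = 0.0155). Mafk, a small MAF protein without a transactivation domain, had 9.507, 9.498 and 8.537 in p80HT and 9.913, 9.999 and 10.49 in WT B cells, and was lower without replicate 3 by the study's threshold (-0.63, SE 0.16, adjusted p = 0.0598). Batf3 had a log2 fold change of 0.42 (SE 0.13, adjusted p = 0.368) with all arrays, under 1.5-fold. Batf, an AP-1 partner, had 8.73, 8.97 and 9.82 in p80HT and 9.03, 8.42 and 8.91 in WT B cells, so that its highest array was the one on which the members were lowest.

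Of 47 other early response genes, 2 were lower with all 6 arrays (0.968% of all genes) and none higher (1.22%). Plk2, a polo-like kinase, had 9.55, 9.52 and 7.05 in p80HT B cells, against 11.46, 11.40 and 11.44 in WT B cells, a log2 fold change of -2.72 (SE 0.63, adjusted p = 0.248). Dusp2, a phosphatase of MAP kinases, had 10.03, 10.01 and 9.11 in p80HT and 10.77, 10.97 and 10.99 in WT B cells (-1.19, SE 0.26, adjusted p = 0.211). With all 6 arrays the Plk2 call was lost with ordinary analysis of variance or without any 1 WT array, and the Dusp2 call with ordinary analysis of variance or without WT replicate 2. Both were also lower without replicate 3 (-1.89, SE 0.10, adjusted p = 2.9e-05, and -0.89, SE 0.11, adjusted p = 0.0020). So was Ppp1r15a (-0.60, SE 0.16, adjusted p = 0.062), the stress-induced phosphatase subunit GADD34. Plk3, Ier3 and Id2 were higher by 0.85 (SE 0.15, adjusted p = 0.010), 0.72 (SE 0.17, adjusted p = 0.047) and 0.62 (SE 0.19, adjusted p = 0.097). Without replicate 3, 1.45% of all genes passed downward and 2.01% upward. The 47 genes had a median log2 fold change of -0.30 with all arrays and of -0.021 without replicate 3.

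On p80HT replicate 3, 25 of these 47 genes were at least 1.5-fold below every other array, as were 4.81% of all genes. Dusp1, the phosphatase that ends MAP kinase signals, had 13.73, 13.57 and 11.11 in p80HT and 13.38, 13.50 and 13.64 in WT B cells. Id2, Ccn1 and Id1 were the 3 genes above every other array by that much (9.61% of all genes). Id2 was at 10.46, 9.89 and 11.68 in p80HT and 9.29, 9.80 and 9.56 in WT B cells. The low replicate 3 of the members was not common to all early response genes.

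**Figure D4:**
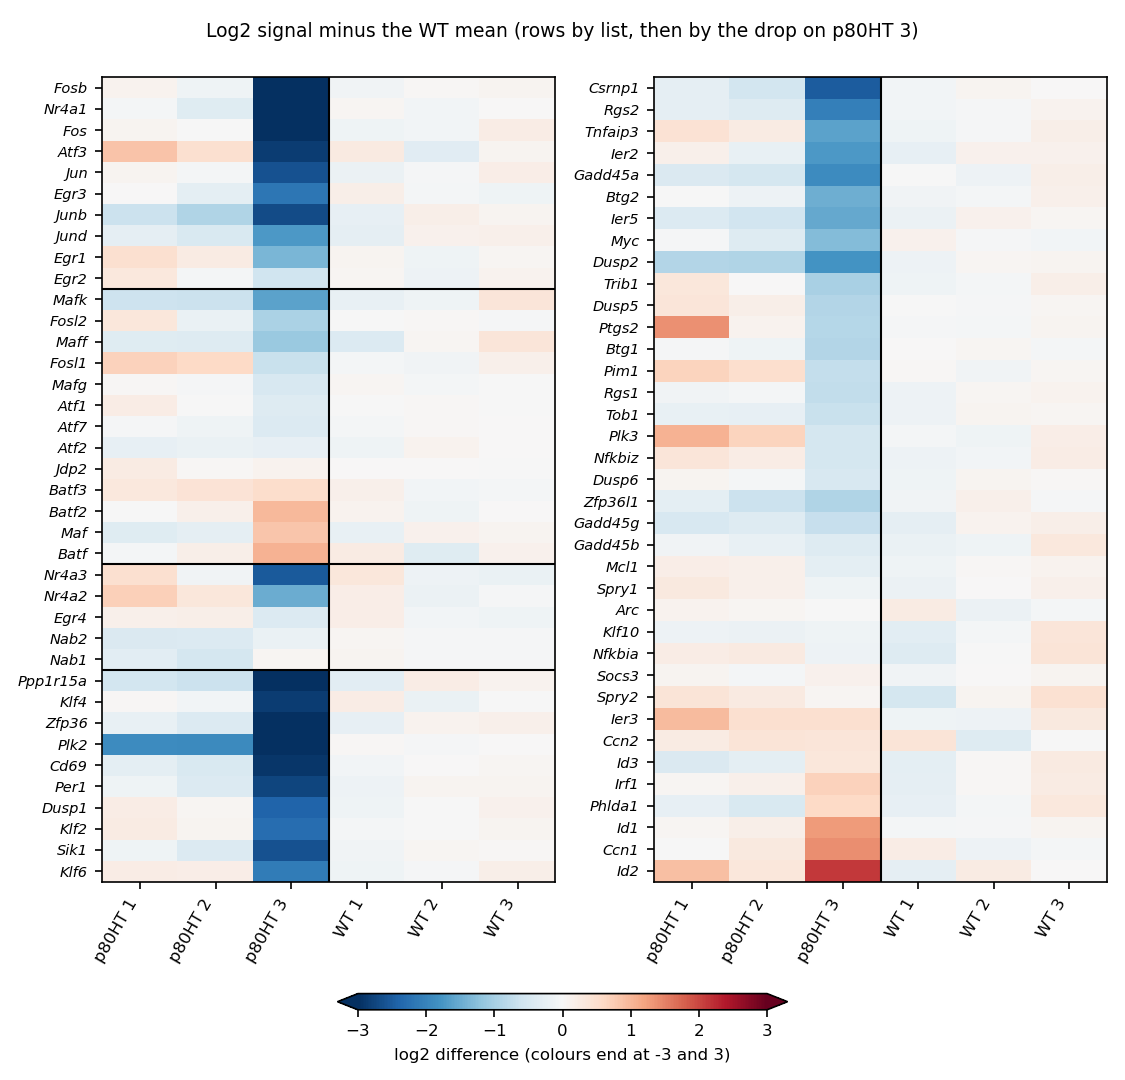
Log2 signal minus the gene's WT mean (colour) on each array (columns, p80HT left of WT) for the members, the other AP-1 and bZIP genes, the other EGR, NR4A and NAB genes and the other early response genes (blocks in that order, the last running into the right panel). The p80HT 3 column is dark blue for most members and red for Id2, while p80HT 1 and 2 differ clearly from WT in Plk2.

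Upstream factors were read through 2 further lists. Of 12 SRF, ternary complex and CREB pathway genes none passed the threshold with or without replicate 3. On p80HT replicate 3, 1 of them, Crem, was at least 1.5-fold below the other arrays (4.81% of all genes). The coactivators Crebbp (-0.50, SE 0.13, adjusted p = 0.295) and Ep300 (-0.47, SE 0.13, adjusted p = 0.325) had the smallest p of that list, both under 1.5-fold. Of 19 measured MAP kinase pathway genes 1 passed with all 6 arrays, downward, as did 0.968% of all genes. This was Mapk11, which encodes p38β, at 10.25, 10.03 and 9.04 in p80HT and 10.69, 10.97 and 10.88 in WT B cells. Its log2 fold change was -1.07 (SE 0.31, adjusted p = 0.334) with all arrays and -0.70 (SE 0.12, adjusted p = 0.0126) without replicate 3. With all 6 arrays its call was lost with either low-signal filter, ordinary analysis of variance, quantile normalization, and without any 1 WT array or p80HT replicate 2. At least 1.5-fold below the other arrays on p80HT replicate 3 were 5 of the 19 genes, and none was above (4.81% and 9.61% of all genes). Of 12 measured heat shock genes none passed with all arrays, where Hsp90aa1 (-0.55, SE 0.18, adjusted p = 0.379) had the smallest p. Without replicate 3, 2 chaperone genes, Dnaja1 (-0.66, SE 0.21) and Hspe1 (-0.62, SE 0.17), passed downward, as did 1.45% of all genes. Neither reached an adjusted p under 0.05. The list's median log2 fold change was -0.51 with all arrays and -0.52 without replicate 3, against -0.023 and 0.036 over all genes. Hspa1a, the inducible HSP70 gene, had 11.37, 12.44 and 7.92 in p80HT and 12.14, 12.73 and 13.64 in WT B cells. Its value on replicate 3 was its lowest and the largest such drop of the heat shock list. On that array 4 of the 12 heat shock genes were at least 1.5-fold below the other arrays and none above (4.81% and 9.61% of all genes). The list's median difference from the other 2 p80HT arrays was -0.19, against -0.17 for all genes.

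The genes outside the set with the profile most like the members' mean over the 6 arrays, by Euclidean distance after subtracting each gene's WT mean, were Fam43a (0.13), Tsc22d3 (0.26), Dtx1 (0.32), Klf4 (0.37), Sik1 (0.37), Dusp1 (0.38), 1700064E03Rik (0.40) and Per1 (0.40). The members' mean profile was 0.092, -0.15 and -2.65 on the p80HT arrays and -0.030, -0.054 and 0.083 on the WT arrays, so likeness to it is mostly a low p80HT replicate 3. Tsc22d3 encodes the glucocorticoid-induced leucine zipper protein, Dtx1 a Notch pathway ubiquitin ligase and Per1 a circadian clock repressor, and Fam43a had 10.82, 10.51 and 8.03 in p80HT and 10.73, 10.74 and 10.77 in WT B cells.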

How the data were processed

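The deposited values were log2 probeset signals that the authors made from 1 array per mouse with RMA (background correction, quantile normalization and summarisation) in Partek software, with versions and settings not given in the sources used here. Because RMA makes array distributions alike, a change in total RNA is not measured. Of 28853 probesets, 21789 had 1 gene symbol, 1621 several and 5443 none, and the single-symbol probeset with the highest mean was kept for each of 19938 genes. No gene was filtered out for low signal, and precision was limited by 3 arrays per group, with separate mice as replicates.

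Differences were fitted with limma 3.58.1 in R 4.3.3 (lmFit, eBayes, two-sided) without covariates, p-values were adjusted by Benjamini-Hochberg over all genes, and the study's threshold of 1.5-fold with p under 0.01 made the calls. The paper took its p-values from analysis of variance, so its calls can differ. On data simulated for the p80HT against WT comparison over 19938 genes, 94 of 100 2-fold and 99 of 100 4-fold changes were recovered, with 21 false calls. The simulated spread of both groups came from the WT arrays, with no outlying array. The rates therefore cannot be carried over to the calls over all genes or to the members. The members' p80HT SD was 3.29 (Jund) to 33.55 (Fosb) times their WT SD. With all arrays their SE was 0.23 (Egr2) to 1.35 (Fosb) log2 units, with a median of 0.60. Tables and figures used Python 3.11.15, pandas 2.3.3 and matplotlib 3.10.9. Named genes were all 10 members, up to 4 called genes of each other list by smallest p (or the 2 of smallest p), the 8 nearest profiles and abundant markers. Other genes in the text, among them Batf, Fosl2, Maff, Batf2, Maf, Nr4a2, Nr4a3, Dusp1, Crem, Hspa1a, Pip and Dcn, were named after their values were seen. The members, lists and tests were chosen with earlier results of these data known. Alternatives covered array weights, low-signal filters, probeset averaging, intensity trend, quantile normalization, median centring, ordinary analysis of variance, a replicate block and leaving out each array.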

Additional observations from a re-analysis of the deposited data

How the results depend on the processing

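With all 6 arrays, 0 members were higher and 0 lower. Array weights gave 1 higher (Atf3) and 1 lower (Junb), a replicate block 1 lower (Junb), and leaving out 1 array 0 to 1 higher and 0 to 1 lower (1 higher without p80HT replicate 3, 1 lower without p80HT replicate 1 or 3). Over all genes, 243 were higher and 193 lower, against 478 and 422 with array weights, 183 and 342 with median centring, 119 and 77 with ordinary analysis of variance, 10 and 1 at an adjusted p under 0.05, 116 and 56 at 2-fold, and 137 to 401 and 69 to 290 without 1 array. With array weights the sign turned in Egr1 (0.38), Egr2 (0.16), Egr3 (0.018) and Atf3 (0.69). Leaving out 1 array gave -1.70 to 0.036 in Fos, -1.33 to 0.013 in Jun, -0.56 to 0.36 in Egr1, -0.33 to 0.13 in Egr2 and -1.19 to 0.66 in Atf3, with the sign turned only without p80HT replicate 3. The causes were not tested.

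Further alternatives without p80HT replicate 3 were chosen after seeing the data. The 1 higher member became 0 with median centring (Atf3 0.58), ordinary analysis of variance, an adjusted p under 0.05 or 2-fold, and 0 to 1 when a second array was left out. The 1 lower member became 0 with ordinary analysis of variance or 2-fold, and was 1 whichever second array was left out. Leaving out a second p80HT array leaves 1, so that the WT arrays alone give the spread and the lone array is assumed to vary like them. Log2 fold changes near 0 turned sign: Fos (-0.045) and Jun (-0.068) with median centring, and Fosb with quantile normalization (0.058) and a replicate block (0.024). Leaving out a second array gave -0.031 to 0.14 in Fos, -0.12 to 0.094 in Fosb, -0.073 to 0.11 in Jun, -0.061 to 0.31 in Egr2 and -0.28 to 0.0021 in Egr3. The count of 9 members on which p80HT replicate 3 lay at least 1.5-fold below the other arrays was the same with quantile normalization and median centring, and 10 were as far below the mean of p80HT replicates 1 and 2. Arrays of equal number did not deviate together (r = 0.074, -0.24 and 0.069). With so few arrays and 1 outlying p80HT array, this cannot decide whether the numbers pair the mice. The sample labels do not say whether they do. The replicate block changed no other member's call.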

Other observations

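The 20 genes with the largest gap of p80HT replicate 3 below every other array included 5 members, 5 other early response genes and 5 microRNA genes, a class picked out after these values were seen. Mir142, a microRNA gene of blood cells, had log2 signals of 10.45, 10.14 and 6.12 in p80HT and 10.09, 10.46 and 10.33 in WT B cells. Mir27a had 11.30, 11.12 and 7.58 in p80HT and 10.61, 10.89 and 11.02 in WT B cells, and Mir23a, its neighbour in 1 cluster, had 11.21, 10.96 and 7.91 in p80HT and 10.55, 10.86 and 10.75 in WT B cells. Mir30e and Mir98 were 3.47 and 2.42 log2 units below the next lowest array. Of 291 microRNA genes measured, 56 (19.2%) were at least 1.5-fold below every other array on p80HT replicate 3 and 0 were that far above, where 4.81% and 9.61% of all genes were. The array reads a microRNA gene through a few probes that cannot tell precursor from mature RNA. Zbtb10, which encodes a zinc finger repressor, had 11.46, 11.21 and 7.31 in p80HT and 11.67, 11.82 and 11.83 in WT B cells, the largest gap outside the members and microRNA genes.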
